A study of Mus musculus with 2 samples.

Results

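Immune checkpoint receptors and ligands were examined in single-cell RNA-Seq of CD45+ cells, the pan-leukocyte fraction, from subcutaneous Lewis lung carcinoma (LLC) tumors. The 9 genes were chosen by symbol: the receptors Pdcd1 (PD-1), Ctla4, Lag3, Havcr2 (TIM-3) and Tigit, and the ligands Cd274 (PD-L1), Pdcd1lg2 (PD-L2), Cd80 and Cd86. Each symbol had 1 row among the 27998 genes of the count matrices. The study asked how miR-21 in macrophages acts on the tumor and on its CD8+ T cells. LLC cells were placed under the skin of C57/BL6 mice aged 8 weeks, and tumors were taken on day 14, at 10 weeks of age. Mice of both groups carried the mir-21 flox/flox alleles, and the conditional knockout mice also carried LysMCre. LysMCre is driven from the Lyz2 locus and is active where lysozyme M is made, above all in macrophages and granulocytes, so T and NK cells should keep miR-21. Cells of 3 mice were pooled into 1 droplet 3′ library for each genotype. The sample titles, wt and cko, gave the groups. The source descriptions assign the genotypes the other way around, so each group is named by its title alone, as labelled wt or labelled cko. The growth protocol also describes a sort for macrophages (CD11b, MHC II and F4/80), whereas the design text gives CD45+ cells. T, NK and dendritic cells were present in both libraries.

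Checkpoint receptors restrain T cells when they meet their ligands on antigen-presenting or tumor cells. PD-1 binds PD-L1 and PD-L2 and dampens signaling from the T cell receptor. CTLA-4 competes with the activating receptor CD28 for CD80 and CD86, and is held at high levels by regulatory T cells that express Foxp3. LAG-3 binds MHC class II among other ligands, TIM-3 binds galectin-9 and other ligands, and TIGIT binds the poliovirus receptor family. T cells under lasting antigen stimulation carry several of these receptors together and lose Tcf7, the transcription factor TCF-1 of T cells that can renew themselves. PD-L1 is an interferon gamma response gene in macrophages and tumor cells.

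On GRCm38 the receptor genes lie on chromosome 1 (Pdcd1, 94038305 to 94052553, minus strand; Ctla4, 60887000 to 60915832, plus strand), 6 (Lag3, 124904361 to 124911705, minus strand), 11 (Havcr2, 46454935 to 46481255, plus strand) and 16 (Tigit, 43648867 to 43664146, minus strand). Cd80 (38455561 to 38496335, plus strand) and Cd86 (36603869 to 36666081, minus strand) are both on chromosome 16.

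After filtering, 2397 cells with 23778659 UMIs (distinct molecules) were kept in the wt library and 2645 cells with 26368861 UMIs in the cko library, with median depths of 8328 and 8226 UMIs per cell. Of the cell barcodes, 5 occurred in both libraries. Cells were assigned to gates by UMIs of marker genes, none of them a checkpoint gene. The T cell gates (Cd3 genes, with or without Cd8) and the NK gate (Ncr1, Klrb1c, Klre1) held 77 and 111 CD8 T, 71 and 81 CD8-negative T and 57 and 52 NK cells labelled wt and cko, and each expressed its 4 check markers more than 2-fold above other cells. The gate on Cd209a and Flt3 (19 and 33 cells) met only 2 of 4 check markers, and is named by these genes alone. Between 17.9% and 20.2% of cells met no gate. Lyz2, which carries the LysMCre insertion, had 15450 CPM in C1q macrophages labelled wt and 7021 CPM in those labelled cko. The library titled cko was thus the one with the lower Lyz2 level. CPM is the number of UMIs of a gene per 1000000 UMIs of the gate. Each genotype is a single library, so no difference has a replicate check. The 95% intervals reflect counting error alone and leave out variation among mice, pools and cells. Log2 ratios are cko over wt, and 2 levels are called separate where their intervals do not overlap.

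Pdcd1, Ctla4 and Lag3 were expressed mainly by lymphocytes, and the order of the gates differed between the 3 genes. Pdcd1 was highest in CD8 T cells, at 438 CPM labelled wt and 532 labelled cko. CD8-negative T cells came next with 184 and 236 CPM. In C1q macrophages Pdcd1 had 1.05 and 1.09 CPM, near the background that free RNA in droplets gives. The CD8 T gate was separate from the next gate in both libraries. It held 72.6% and 67.6% of all Pdcd1 UMIs. Outside lymphocytes, mature dendritic cells (Fscn1, Ccr7) had Pdcd1 at 65.7 CPM (5 UMIs, 5 of 11 cells) labelled wt and 85.2 CPM (16 UMIs, 6 of 24 cells) labelled cko, where Cd3 genes had 1 and 0 UMIs.

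Ctla4 followed another order. CD8-negative T cells were highest, at 260 CPM labelled wt and 293 labelled cko, against 43.8 and 73.0 CPM in CD8 T cells. Within the CD8-negative gate, Foxp3 T cells (10 and 20 cells with a Foxp3 UMI) had 1198 and 692 CPM, and 9 of 10 and 20 of 20 of them had a Ctla4 UMI. The remaining 61 and 61 CD8-negative T cells had 60.7 and 125 CPM. The Foxp3 T cells held 48.4% and 34.4% of all Ctla4 UMIs.

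Lag3 was highest in CD8 T cells and in plasmacytoid dendritic cells, the interferon-producing cells marked by Siglech and Ccr9. CD8 T cells had 572 CPM in the first library (wt) and 774 CPM in the other (cko). Plasmacytoid dendritic cells had 756 and 609 CPM, and 16 of 17 and 19 of 19 of them had a Lag3 UMI. The intervals of these gates overlapped in each library (592 to 950 against 518 to 630 CPM labelled wt, 474 to 769 against 721 to 830 CPM labelled cko). NK cells followed with 212 and 171 CPM, and CD8-negative T cells with 119 and 95.3 CPM. C1q macrophages, at 10.1 and 11.2 CPM (77 and 113 UMIs in 36 and 67 cells), were far below these gates.

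Havcr2 was the receptor shared between lymphoid and myeloid cells. Its level was 140 CPM (wt) and 154 CPM (cko) in CD8 T cells, and conventional dendritic 1 cells (Xcr1, Clec9a) had 87.3 and 126 CPM. Their intervals overlapped in both libraries. Nonclassical monocytes (Ace, Treml4) had 61.8 and 69.1 CPM, classical monocytes 42.7 and 42.3 CPM, and C1q macrophages 24.4 and 27.5 CPM. Because these cells are many, the CD8 T gate held only 10.3% and 13.8% of all Havcr2 UMIs. Tigit was near the detection limit, with 7 UMIs labelled wt and 10 labelled cko over all cells, of which 5 and 8 lay in the T and NK gates. Tigit was therefore under the minimum for a comparison in each gate.

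**Figure D1:**
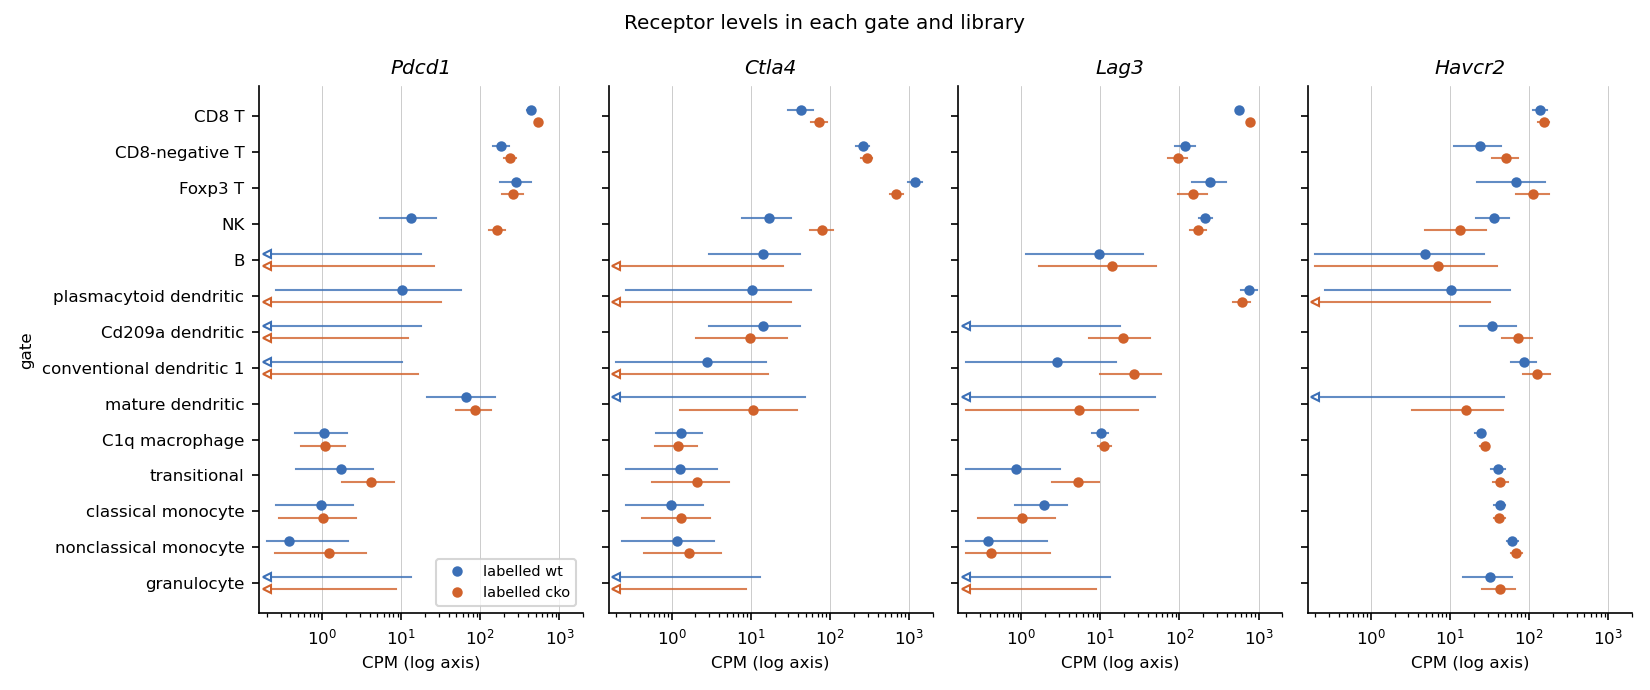
Levels of 4 receptors (CPM, log axis) in 14 gates, with Foxp3 T a subset of CD8-negative T, labelled wt (blue) and cko (orange). Points are CPM with 95% Poisson intervals for counting error, and an open triangle at the left edge marks a gate with 0 UMIs. Pdcd1 is highest in CD8 T, Ctla4 in Foxp3 T, Lag3 in CD8 T and plasmacytoid dendritic, and Havcr2 spans lymphoid and myeloid gates.

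The receptors were then compared between the libraries. Of 15 pairs of a receptor and a T or NK gate, 12 had at least 20 UMIs over both libraries. Of these, 4 were more than 1.5-fold higher in the cko library, 1 was more than 1.5-fold lower and 7 lay within 1.5-fold. In CD8 T cells 1 of 4 receptors passed 1.5-fold, where 19.4% of all genes with at least 20 UMIs did. In CD8-negative T cells it was 1 of 4 against 22.5% of genes, and in NK cells 3 of 4 against 24% of genes. Both T cell gates were thus close to the share of all genes, which 4 receptors cannot resolve further.

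In CD8 T cells the 4 receptors with enough UMIs all had ratios above 0. Ctla4 was seen in 20 of 77 cells (32 UMIs, 43.8 CPM) labelled wt and in 37 of 111 cells (75 UMIs, 73.0 CPM) labelled cko, a log2 ratio of 0.74 (interval 0.12 to 1.38). Lag3 had 418 and 795 UMIs and a log2 ratio of 0.44 (interval 0.26 to 0.61). Pdcd1 had 320 and 547 UMIs and a log2 ratio of 0.28 (interval 0.08 to 0.49). For these 3 genes the interval excluded 0, although Lag3 and Pdcd1 stayed within 1.5-fold. Havcr2, with 102 and 158 UMIs, had a log2 ratio of 0.14 and an interval from -0.23 to 0.51. The median over all genes of the gate was 0.02.

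Shares of cells gave the same order between the libraries. Because CD8 T cells labelled cko were deeper (median 7985 against 6627 UMIs), each cell was thinned to 3000 UMIs. After thinning, a Pdcd1 UMI was left in 51.9% (40.3 to 63.5) of wt and 64.9% (55.2 to 73.7) of cko CD8 T cells. Without thinning the shares were 64.9% and 79.3%. For Lag3 the thinned shares were 61.0% (49.2 to 72.0) and 77.5% (68.6 to 84.9). The intervals of the libraries overlapped for both genes. In C1q macrophages, taken as cells that should lack Pdcd1, a Pdcd1 UMI was left after thinning in 0 of 556 cells, which allows a share of cells with a UMI of up to 0.540% by a floor of 3 counts (exact upper bound 0.661%), and in 0.255%. Unthinned it was 7 of 556 and 11 of 783 cells.

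Over all cells of a library, Pdcd1 had 18.5 and 30.7 CPM, a log2 ratio of 0.73 (interval 0.56 to 0.90), a larger ratio than within CD8 T cells. CD8 T cells made up 3.21% of cells labelled wt and 4.20% of those labelled cko. Ctla4 over all cells had a log2 ratio of 0.74, Lag3 0.41 and Havcr2 0.07.

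In CD8-negative T cells the receptors did not share a direction. Havcr2 was seen in 7 of 71 cells (10 UMIs, 23.8 CPM) labelled wt and in 15 of 81 cells (29 UMIs, 51.2 CPM) labelled cko, and its log2 ratio of 1.10 had an interval from 0.02 to 2.30. The thinned shares of cells with Havcr2, 7.04% and 8.64%, did not show this difference. Foxp3 T cells, which were 10 of the 71 and 20 of the 81 cells of the gate, held 5 and 19 of these UMIs. Neither part of the gate had an interval that excluded 0: the log2 ratio of Havcr2 was 0.74 (-0.73 to 2.51) in Foxp3 T cells and 0.79 (5 and 10 UMIs, -0.89 to 2.69) in the others. Pdcd1 had a log2 ratio of 0.37 (interval -0.05 to 0.79), or 0.57 (0.11 to 1.04) without the top cells, and Lag3 one of -0.32 (interval -0.91 to 0.26). Ctla4 differed little over the whole gate, with a log2 ratio of 0.17 (interval -0.18 to 0.53), but its parts lay on opposite sides of 0. In Foxp3 T cells Ctla4 had a log2 ratio of -0.79 (88 and 116 UMIs, interval -1.20 to -0.37). In the CD8-negative T cells without a Foxp3 UMI it had one of 1.05 (21 and 50 UMIs, interval 0.28 to 1.85). With 10 and 20 Foxp3 T cells, the first value rests on few cells.

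NK cells held the widest receptor ratios. Pdcd1 was seen in 5 of 57 cells (7 UMIs, 13.3 CPM) labelled wt and in 11 of 52 cells (73 UMIs, 162 CPM) labelled cko, a log2 ratio of 3.61 (interval 2.50 to 4.98). A few cells carried it: the top cell held 21 of the 73 UMIs, and without the top cell of each library the log2 ratio was 3.98. Ctla4 had 17.0 CPM (9 UMIs, 4 cells) and 80.0 CPM (36 UMIs, 11 cells), with a log2 ratio of 2.23 (interval 1.15 to 3.47), and 5 of the 11 NK cells with Pdcd1 labelled cko also had Ctla4. The top cell held 12 of the 36 Ctla4 UMIs, and at 3000 UMIs Ctla4 was left in 5.26% and 7.69% of NK cells, shares that did not show the difference. For Pdcd1 the thinned shares were 3.51% (0.43 to 12.1) and 15.4% (6.88 to 28.1). Havcr2 went the other way, with 36.0 CPM (19 UMIs, 10 of them in 1 cell) and 13.3 CPM (6 UMIs), a log2 ratio of -1.43 (interval -3.05 to -0.05). Without the top cells its interval ran from -3.94 to 0.58. Lag3, at 212 and 171 CPM, had a log2 ratio of -0.31 (interval -0.75 to 0.12).

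Because the NK gate allows 1 Cd3 UMI, T cell markers were counted beside Pdcd1. Of the NK cells with Pdcd1, 0 of 5 labelled wt and 3 of 11 labelled cko had a Cd3 or Cd8 UMI. Of those without Pdcd1, 3 of 52 labelled wt and 5 of 41 labelled cko had one. Among the NK cells without any Cd3 or Cd8 UMI (54 and 44 cells), Pdcd1 had 7 UMIs (14.8 CPM) in the wt library and 56 UMIs (151 CPM) in the cko library, a log2 ratio of 3.34. The NK transcription factor Eomes had 81.3 and 95.3 CPM in the NK cells with Pdcd1 and 114 and 86.7 CPM in those without. The value of 81.3 CPM rests on 5 cells. Pdcd1 was thus also higher in cko NK cells without a Cd3 or Cd8 UMI. A cell without such a UMI can still hold these transcripts, and the part of T cells in the Pdcd1 ratio was not tested.

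**Figure D2:**
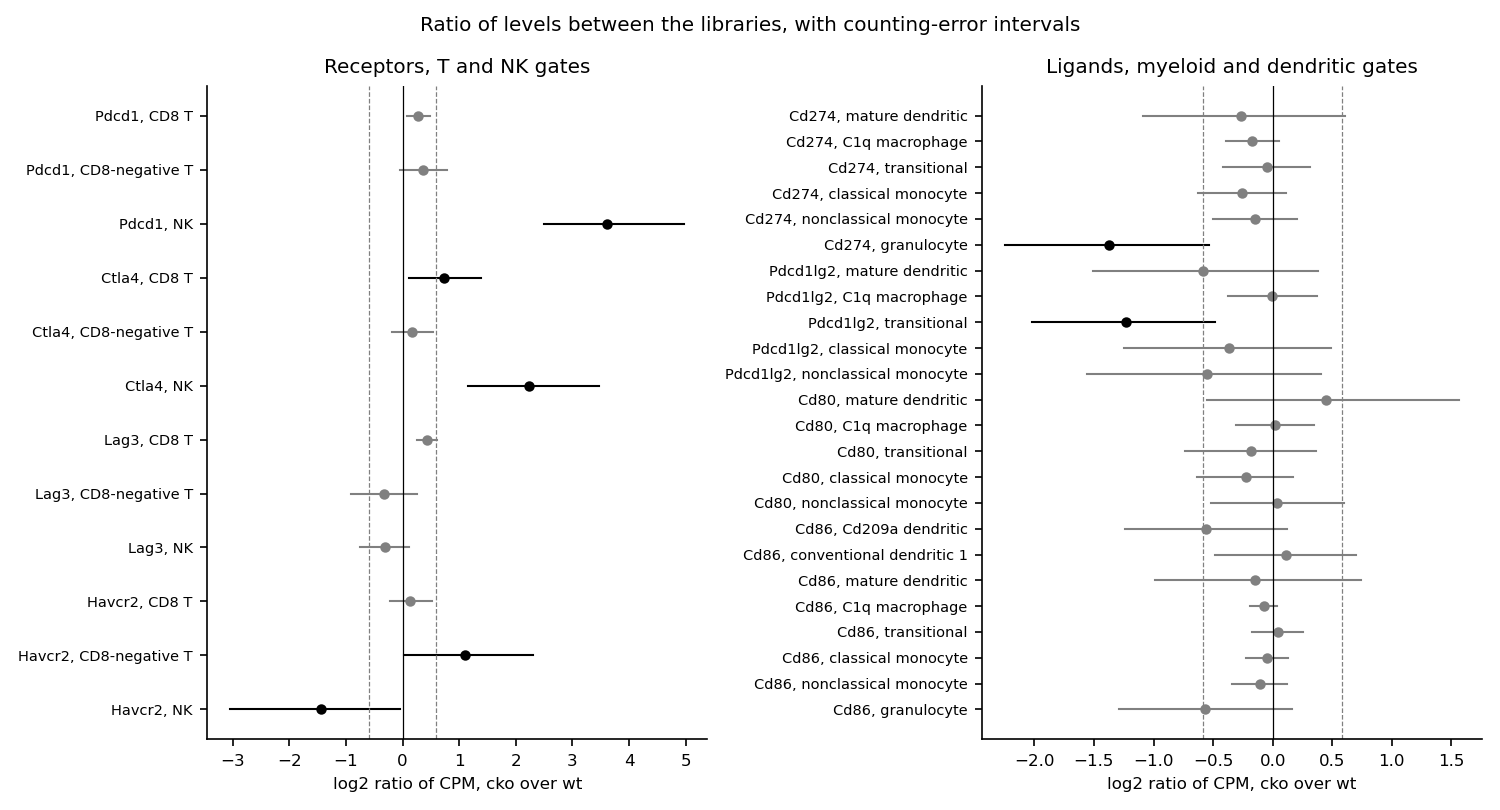
Log2 ratio of CPM, cko over wt, for the 12 receptor pairs (left) and 24 ligand pairs (right) with at least 20 UMIs. Points are ratios and lines 95% intervals for counting error, black where the ratio passes 1.5-fold either way (dashed lines). Pdcd1 and Ctla4 in NK cells lie farthest to the right, and most ligand pairs lie near 0.

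Receptors were often found in the same cell. In CD8 T cells thinned to 3000 UMIs, 44 of 77 cells labelled wt (57.1%, 45.4 to 68.4) and 78 of 111 labelled cko (70.3%, 60.9 to 78.6) had at least 2 of the 5 receptors. Unthinned, the shares were 64.9% and 82.9%. Cells with at least 3 receptors were 22.1% and 30.6%. In CD8-negative T cells the share with at least 2 was 18.3% and 25.9%, and in NK cells it was 5.26% and 7.69%. The intervals of the libraries overlapped in every gate when cells were thinned, and with 1 library per genotype the difference has no test.

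**Figure D3:**
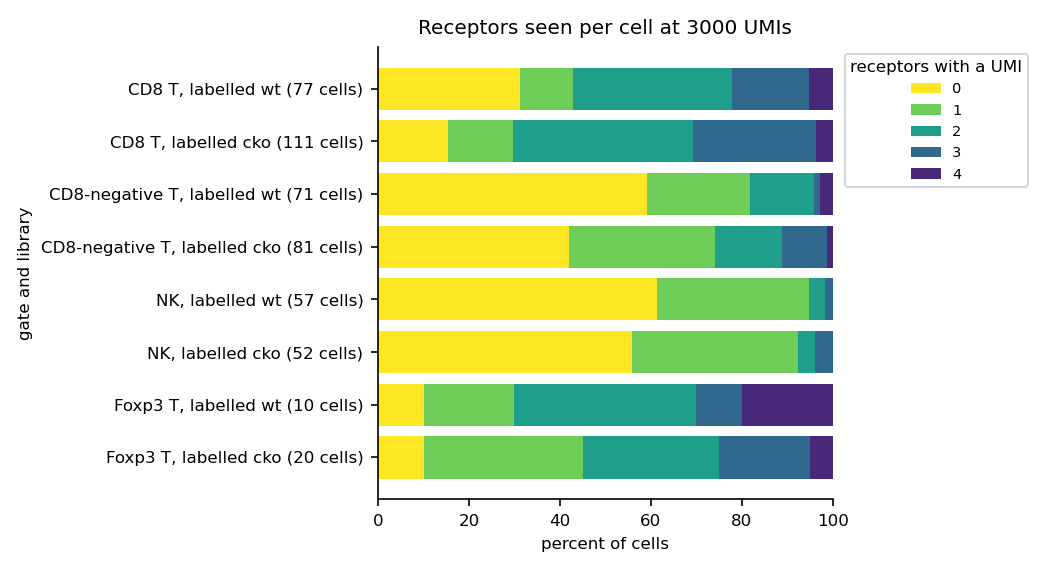
Share of cells (percent) with a UMI of 0, 1, 2, 3 or 4 of the 5 receptors after thinning each cell to 3000 UMIs, by gate and library; Foxp3 T cells are a subset of CD8-negative T cells. CD8 T and Foxp3 T cells most often hold at least 2 receptors, and NK cells seldom do.

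Within CD8 T cells, those with Pdcd1 were compared with those without. At 3000 UMIs, Lag3 was seen in 36 of 40 cells with Pdcd1 (90.0%, 76.3 to 97.2) and 11 of 37 without (29.7%, 15.9 to 47.0) in the wt library. In the cko library it was seen in 66 of 72 (91.7%, 82.7 to 96.9) and 20 of 39 (51.3%, 34.8 to 67.6). Havcr2 had 172 CPM in cells with Pdcd1 and 88.2 CPM in cells without, labelled wt, and 182 and 103 CPM labelled cko. Tcf7 lay mostly in cells without Pdcd1, with 2.24 against 102 CPM (1 and 29 UMIs) labelled wt and 7.58 against 57.2 CPM (5 and 21 UMIs) labelled cko. Gzmb, the cytotoxic protease granzyme B, had 6887 against 4188 CPM and 3037 against 2417 CPM. Where cells were split by Pdcd1 without thinning, the Gzmb values were 7239 against 633 CPM and 3072 against 1362 CPM, a wider gap in both libraries. Cells with Pdcd1 were deeper, with a median of 7916 against 6228 UMIs labelled wt and 8066 against 7090 labelled cko.

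Other co-receptors gave context for these values. Of 17 further receptors found by symbol, 13 had at least 20 UMIs in CD8 T cells, where only Icos, the inducible costimulator, passed 1.5-fold (39.7 and 78.8 CPM, log2 ratio 0.99, interval 0.36 to 1.66), beside 19.4% of all genes. The median log2 ratio of the 13 was 0.24, beside 0.02 over all genes. In CD8-negative T cells only Tnfrsf4 (OX40, a costimulator of activated T cells) did, with 472 and 905 CPM (log2 ratio 0.94, interval 0.70 to 1.18), beside 22.5% of all genes, and the median of 13 receptors was -0.02. The larger number of Foxp3 T cells in that gate labelled cko (20 of 81 against 10 of 71) stands beside the Tnfrsf4 value, and its part in it was not tested. In NK cells 4 of 11 were higher (Cd160, Cd27, Vsir and Icos) and 2 lower (Tnfrsf18 and Cd226), beside 24% of all genes past 1.5-fold. The intervals of Icos and Cd226 in NK cells included 0. Cd160, an NK and T cell receptor for HVEM, had 133 and 258 CPM, and Tnfrsf18 (GITR) had 341 and 187 CPM.

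Of 14 transcription factors of exhausted and effector T cells, 11 had enough UMIs in CD8 T cells, with a median log2 ratio of 0.24. Tox, which maintains exhausted CD8+ T cells and is named after its values were seen, had 115 and 159 CPM (log2 ratio 0.47, interval 0.08 to 0.86). Prdm1 and Nr4a1 passed 1.5-fold upward and Tcf7 downward (19.4% of all genes passed either way), and all 3 intervals included 0. In CD8-negative T cells 2 of 11 factors were higher (Batf and Nr4a1) and 2 lower (Eomes and Id3), where 22.5% of all genes passed. Batf had 90.6 and 146 CPM and Eomes 47.7 and 12.4 CPM, while the intervals of Nr4a1 and Id3 included 0. In NK cells 2 of 8 were higher (Nr4a2 and Nfatc1) and 1 lower (Tcf7), where 24% of all genes passed, and the interval of Nfatc1 included 0. The widest was Nr4a2, an early gene of antigen receptor signaling, with 15.2 and 80.0 CPM (log2 ratio 2.40, interval 1.27 to 3.72).

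Cd274 and Pdcd1lg2 are neighbours on chromosome 19, at 29367455 to 29388095 and 29410919 to 29471161 on the plus strand (GRCm38), with 22823 bases between them. Their promoter windows, 250 bases before to 50 after the annotated start, are shown because both were set against interferon gamma genes. The sequences come from RefSeq on GRCm38.p6, which gave a window for 7 of the 9 genes. Capitals mark GAAANNGAA on either strand, a pair of half-sites of the kind that interferon regulatory factors bind.
Cd274 promoter, chr19:29367188-29367487, plus strand: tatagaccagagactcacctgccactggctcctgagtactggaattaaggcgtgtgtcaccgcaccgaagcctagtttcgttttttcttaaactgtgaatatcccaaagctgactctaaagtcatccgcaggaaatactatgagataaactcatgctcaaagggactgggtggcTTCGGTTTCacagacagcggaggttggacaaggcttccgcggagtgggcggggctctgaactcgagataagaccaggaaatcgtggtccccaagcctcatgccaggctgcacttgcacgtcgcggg
Pdcd1lg2 promoter, chr19:29410669-29410968, plus strand: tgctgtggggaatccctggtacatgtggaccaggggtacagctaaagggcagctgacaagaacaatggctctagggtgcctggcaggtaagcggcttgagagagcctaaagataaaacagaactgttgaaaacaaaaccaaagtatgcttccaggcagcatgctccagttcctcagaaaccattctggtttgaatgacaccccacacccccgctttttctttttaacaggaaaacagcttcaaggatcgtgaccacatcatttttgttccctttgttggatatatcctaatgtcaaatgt
The Cd274 window held 1 match, on the opposite strand at bases 175 to 183 of the window, and the Pdcd1lg2 window held none. GAAANNGAA was present in 8.56% of all 32851 promoter windows on either strand. A longer form with 1 more A at its 3′ end, the letters of an interferon-stimulated response element, was present in 3.44% of windows. It matched neither the Cd274 nor the Pdcd1lg2 window. Of the other 5 members with a window, only Ctla4 held a match to GAAANNGAA.

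The ligands were led by mature dendritic cells. For Cd274, mature dendritic cells had 19 UMIs (250 CPM, 8 of 11 cells) labelled wt and 39 UMIs (208 CPM, 20 of 24 cells) labelled cko. Pdcd1lg2 had 224 and 149 CPM, Cd80 had 145 and 197 CPM, and Cd86 had 237 and 213 CPM there. For Pdcd1lg2 and Cd80 this gate was separated from the next gate in both libraries, for Cd274 only in the library labelled cko, and for Cd86 in neither. Thinned to 3000 UMIs, 6 of 11 and 10 of 24 mature dendritic cells had at least 2 of the 4 ligands, while 8.45% of 556 and 7.92% of 783 C1q macrophages did. The gate is small, so its share of all Cd274 UMIs was 1.80% and 3.74%.

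Below mature dendritic cells the 4 ligands were arranged differently. Cd86 was broadly expressed, with 153 and 145 CPM in C1q macrophages (C1q genes at 0.2% or more of UMIs, Ly6c2 low), 169 and 174 CPM in transitional cells (C1q and Ly6c2) and 138 and 134 CPM in classical monocytes (Ly6c2). C1q macrophages held 34.9% and 41.9% of all Cd86 UMIs. Cd274 was higher in transitional cells (61.7 and 59.5 CPM) than in C1q macrophages (41.2 and 36.6 CPM), with separate intervals in both libraries, and classical monocytes had 34.4 and 28.8 CPM. Cd80 had 17.8 and 18.0 CPM in C1q macrophages, 29.3 and 25.9 CPM in transitional cells and 28.9 and 24.7 CPM in classical monocytes.

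Pdcd1lg2 was found in lymphocytes as well. It was seen in 23 of 57 NK cells (34 UMIs, 64.4 CPM) labelled wt and 19 of 52 (28 UMIs, 62.2 CPM) labelled cko, the second level after mature dendritic cells in both libraries. CD8-negative T cells had 47.7 and 33.5 CPM, CD8 T cells 30.1 and 35.0 CPM, and C1q macrophages 14.0 and 14.0 CPM. In each library the interval of NK cells overlapped those of both T cell gates, so NK cells were not separate from them. The intervals of NK cells and C1q macrophages were separate in both libraries (44.6 to 90.0 against 11.5 to 16.9 CPM labelled wt, 41.4 to 89.9 against 11.8 to 16.5 CPM labelled cko). C1q genes in NK cells stood at 1.05% and 1.15% of their level in C1q macrophages, whereas Pdcd1lg2 in NK cells was above its level in C1q macrophages.

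**Figure D4:**
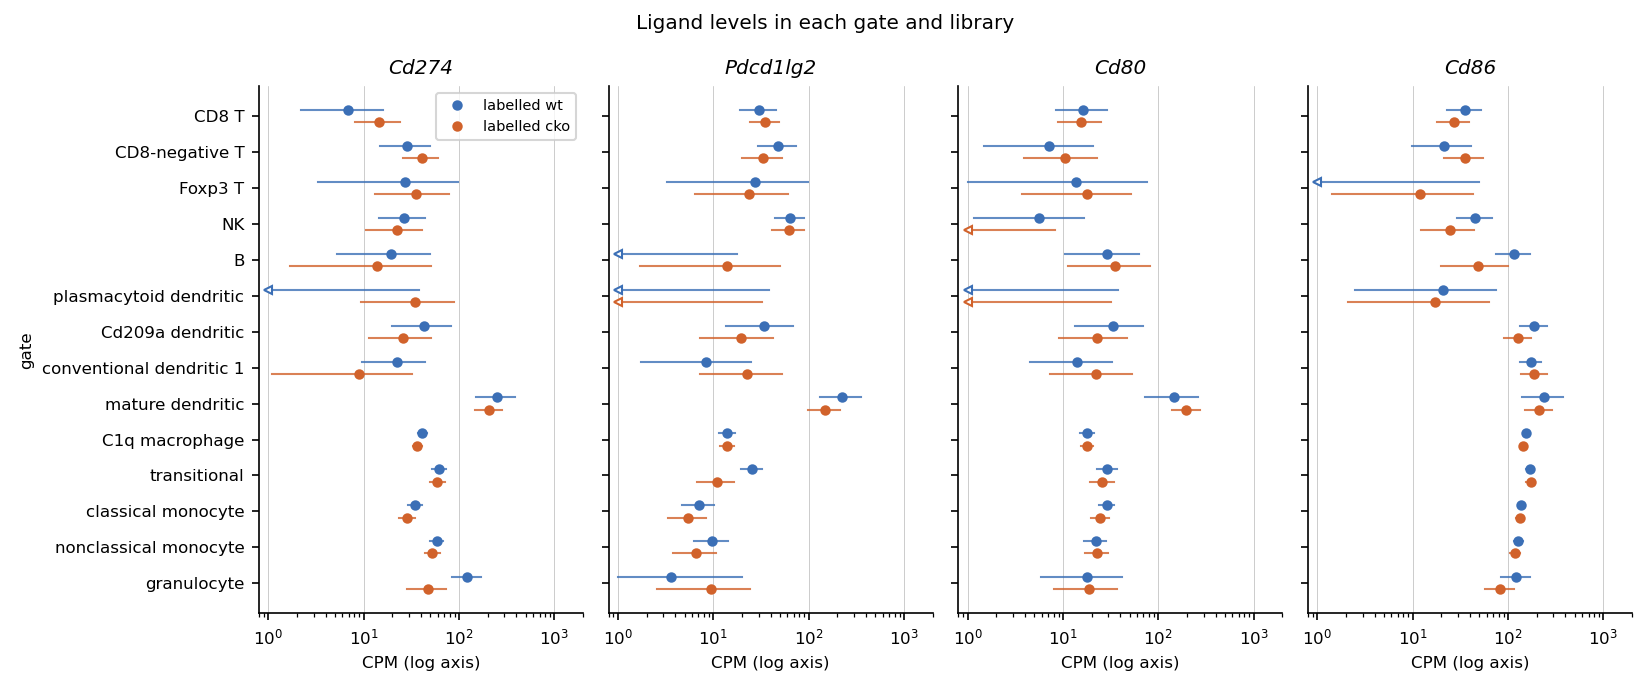
Levels of the 4 ligands (CPM, log axis) in 14 gates labelled wt (blue) and cko (orange), with 95% Poisson intervals for counting error. Open triangles at the left edge mark gates with 0 UMIs. Mature dendritic cells are highest for each ligand, Cd86 lies between 82.6 and 237 CPM in the myeloid and dendritic gates other than plasmacytoid, and Pdcd1lg2 is higher in NK cells than in macrophages.

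Most ligand pairs were within 1.5-fold between the libraries. Of 32 pairs of a ligand and a myeloid or dendritic gate, 24 had at least 20 UMIs, 0 were more than 1.5-fold higher in the cko library and 2 were more than 1.5-fold lower. None of 4 ligands passed in C1q macrophages, where 8.88% of genes did, in classical monocytes (9.07%), in nonclassical monocytes (10.4%) or in mature dendritic cells (36.7%). It was 1 of 4 in transitional cells (12.2% of genes), 1 of 2 in granulocytes (28.7%), and 0 of 1 in the gate on Cd209a and Flt3 (24.2%) and in conventional dendritic 1 cells (23.6%). In C1q macrophages the log2 ratio was -0.08 (interval -0.19 to 0.04) for Cd86, -0.17 (-0.39 to 0.05) for Cd274, -0.01 (-0.38 to 0.37) for Pdcd1lg2 and 0.02 (-0.31 to 0.35) for Cd80, so a difference of 1.5-fold lay outside all 4 intervals. In mature dendritic cells, where the median over all genes was 0.11, the 4 ratios ran from -0.58 to 0.45 and every interval included 0. Just inside 1.5-fold, and lower in the cko library, were Pdcd1lg2 in mature dendritic cells (-0.58) and nonclassical monocytes (-0.55) and Cd86 in granulocytes (-0.56) and in the gate on Cd209a and Flt3 (-0.56), all with intervals that included 0. Each of the 4 passed 1.5-fold under at least 1 other setting. In mature dendritic cells 10 of the 19 Cd274 UMIs labelled wt were in 1 cell, and without the top cells the Cd274 ratio was 0.48 in place of -0.27.

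The ratios past 1.5-fold were those of Cd274 in granulocytes and Pdcd1lg2 in transitional cells. Granulocytes (Csf3r or Cxcr2 with S100a8 and S100a9) had a Cd274 UMI in 14 of 42 cells (34 UMIs, 122 CPM) labelled wt and 14 of 74 cells (20 UMIs, 47.2 CPM) labelled cko, with a log2 ratio of -1.37 (interval -2.25 to -0.53). The median depth of these cells was 6365 and 4132 UMIs, and after thinning 28.6% (15.7 to 44.6) and 9.46% (3.89 to 18.5) of them had a Cd274 UMI. The granulocyte check markers also differed, with Retnlg at 7632 and 16900 CPM, G0s2 at 1492 and 2155 CPM and Mmp9 at 284 and 413 CPM, and their part in the Cd274 ratio was not tested. Pdcd1lg2 in transitional cells was 25.4 CPM (59 UMIs, 35 of 197 cells) and 10.9 CPM (21 UMIs, 18 of 164 cells), with a log2 ratio of -1.23 (interval -2.02 to -0.49). The thinned shares, 4.57% and 5.49%, did not show this difference. Without the top cells the log2 ratios of Cd274 and Pdcd1lg2 were -1.32 and -1.19.

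Genes of the interferon gamma response were then counted, starting with granulocytes. Of 13 genes for the interferon gamma receptor, its signaling and its targets, 11 had at least 20 UMIs in granulocytes, 5 were more than 1.5-fold lower in the cko library and 1 was higher, beside 28.7% of all genes past it, with a median log2 ratio of -0.55 beside -0.10 over all genes. Gbp2, a guanylate-binding protein, had 751 and 156 CPM (log2 ratio -2.27, interval -2.69 to -1.86). Cxcl9, a chemokine that draws CXCR3+ T cells, had 64 UMIs in the 42 cells labelled wt and 0 in the 74 labelled cko. Its log2 ratio was -5.02 with the cko library set at a floor of 3 counts, and the exact upper bound for counting error was -4.68. How the 64 UMIs were spread over cells was not examined, so a few cells may hold most of them. Cxcl10, another chemokine for CXCR3+ cells, was the higher gene, with 3 and 18 UMIs (10.8 and 42.5 CPM, log2 ratio 1.98, interval 0.20 to 4.38). In C1q macrophages 1 of the 13 genes was lower (Gbp2, 255 and 161 CPM), beside 8.88% of all genes, and the median was -0.12. None of 13 passed in transitional cells (12.2% of all genes) and 1 of 13, Cxcl9, was lower in classical monocytes (9.07%). In nonclassical monocytes 5 of 13 were lower, where 10.4% of all genes passed either way, with a median of -0.24. Cxcl10 (log2 ratio 0.46, interval 0.25 to 0.66) and Ifngr1 (0.31, 0.22 to 0.40) were higher there, within 1.5-fold. Both were also higher within 1.5-fold in classical monocytes, at 0.28 (0.16 to 0.41) and 0.22 (0.14 to 0.30). The gate on Cd209a and Flt3 had the lowest median, -0.95, with 6 of 11 lower and 1 higher beside 24.2% of all genes. There Cxcl10 had 505 and 58.7 CPM. The check marker Clec10a had 38.5 and 166 CPM in that gate, and its part in these values was not tested. In conventional dendritic 1 cells 3 of 9 were lower and 1 higher, beside 23.6% of genes. In mature dendritic cells 6 of 8 were higher and 1 lower, beside 36.7% of genes, with 0.77 as the median. Of those 6 genes only Cxcl10 (2 and 33 UMIs) had an interval that excluded 0, and the wt library held at most 14 UMIs of each. Whether this list and the ligands are linked across the libraries was not tested.

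Of 20 other ligands and partners found by symbol, few passed 1.5-fold. None of 16 did in C1q macrophages (8.88% of all genes), none of 12 in classical monocytes (9.07%) and none of 6 in granulocytes (28.7%). In nonclassical monocytes Cd276 was higher, 1 of 13, beside 10.4% of all genes. In the gate on Cd209a and Flt3 2 of 8 were higher (Icosl and Lgals9) and 1 lower (Cd40), beside 24.2% of all genes. The intervals of Icosl, Lgals9 and Cd40 in that gate included 0. In transitional cells 1 of 13 was lower (12.2% of all genes passed either way), the inhibitory receptor Cd200r1, with 35.4 and 18.1 CPM (log2 ratio -0.97, interval -1.58 to -0.38). In mature dendritic cells 2 of 6 were higher (Lgals3 and Pvr, the latter with an interval that included 0) and 2 lower (Cd200 and Cd40), where 36.7% of all genes passed. Lgals3, the lectin galectin-3, had 210 and 527 CPM there (log2 ratio 1.33, interval 0.56 to 2.19), and Cd200, the ligand of Cd200r1, had 723 and 389 CPM (log2 ratio -0.90, interval -1.42 to -0.36). Cd40, the receptor through which T cell help matures dendritic cells, had 552 and 288 CPM there (log2 ratio -0.94, interval -1.55 to -0.32). In conventional dendritic 1 cells 1 of 5 was lower, beside 23.6% of all genes. It was Cd40, with 70.4 and 22.5 CPM (log2 ratio -1.65, interval -3.39 to -0.24).

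Within a library, Cd274 and the other ligands were compared between cells high and low in interferon gamma genes. Whether the promoter match shown above has a part in these values was not tested. Cells of a gate were ranked by the share of UMIs from Irf1, Gbp2, Gbp3, Gbp4, Gbp5, Cxcl9, Cxcl10, Ciita and Socs1, and the top 25% were set against the bottom 25%. In classical monocytes Cd274 had 69.5 against 13.7 CPM (75 and 14 UMIs, 5.06-fold) labelled wt and 66.2 against 7.08 CPM (63 and 7 UMIs, 9.34-fold) labelled cko. In C1q macrophages it had 72.5 against 21.7 CPM (3.34-fold) and 55.5 against 25.9 CPM (2.15-fold), and in transitional cells 109 against 38.0 CPM (2.88-fold) and 82.6 against 41.0 CPM (2.02-fold). All 6 intervals of the log2 ratio were above 0, and median depths of the compared cells were between 8244 and 12025 UMIs.

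Pdcd1lg2 was 2.13-fold and 2.24-fold higher in the top 25% of C1q macrophages labelled wt and cko. In transitional cells labelled wt it was 2.31-fold higher (log2 interval 0.03 to 2.47), and those labelled cko held only 4 and 5 UMIs. In classical monocytes Pdcd1lg2 also had few UMIs, 4 and 7 labelled wt and 3 and 11 labelled cko in the bottom and top 25%. Cd86 was 1.43-fold and 1.35-fold higher in C1q macrophages and 1.44-fold and 1.92-fold in classical monocytes. In transitional cells it was 1.06-fold (log2 interval -0.31 to 0.46) labelled wt and 1.63-fold (0.23 to 1.19) labelled cko. The interval of Cd80 included 0 in all 3 gates of both libraries, with folds from 1.04 to 1.73.

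**Figure D5:**
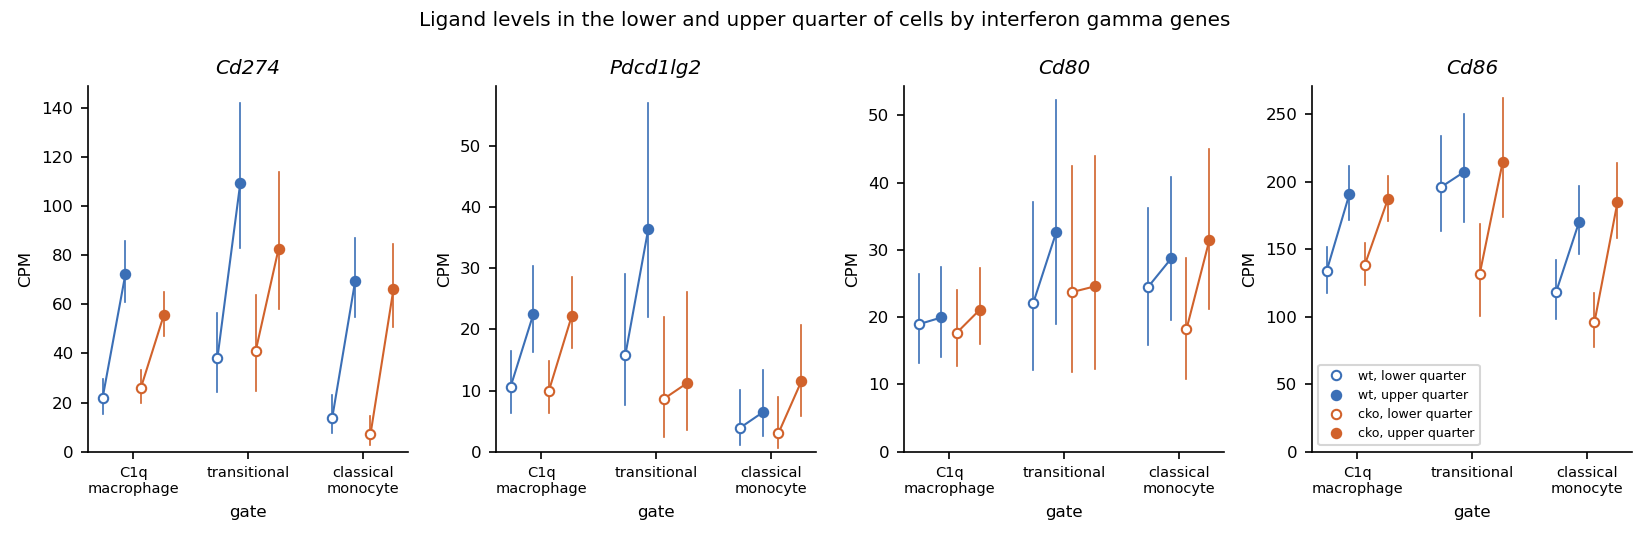
CPM of each ligand in the 25% of cells with the lowest (open) and highest (filled) share of interferon gamma genes, for C1q macrophages, transitional cells and classical monocytes labelled wt (blue) and cko (orange). Vertical lines are 95% Poisson intervals for counting error. Cd274 is higher in the upper group in all 6 comparisons, while the groups of Cd80 overlap.

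Across the 13 gates with at least 10 cells in both libraries, genes with the most similar profiles were sought among 9129 genes by the lower of the 2 libraries' correlations of log2(CPM + 10). These correlations are descriptions over gates that share libraries and depth. For Pdcd1 they were Cd247 (0.89), the CD3 zeta chain, Il2ra (0.89) and Cxcr6 (0.87), and for Ctla4 they were Icos (0.94), Ikzf2 (0.89), the factor Helios of regulatory T cells, and Hist1h2bj (0.89). Lag3 was most like Sla2 (0.92), and Havcr2 had no gene above 0.80, led by Rev3l (0.80). Cd274 was most like Fam49a (0.86), Pdcd1lg2 like Wnk1 (0.93) and Stat4 (0.90), Cd80 like Specc1 (0.88) and Cd86 like Synj1 (0.88).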

How the data were processed

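The deposited matrices hold raw UMI counts from the authors, not normalized, with cells already called. Cell Ranger, Seurat and mm10 are named in the submitters' processing notes, with versions not given in the sources used here. The members and lists were chosen with earlier results of these data known. The filter on cells was a minimum of 200 genes and a maximum of 10% mitochondrial UMIs (4 and 14 removed). The automatic Scrublet threshold marked 2 and 5 cells, so the highest scores were removed at loading-based rates of 1.96% and 2.17% (48 and 59 cells). Gates required at least 2 UMIs of lineage markers and a C1q share under or over 0.2%; cells in more than 1 gate (20 and 20) were left out. All 9 members were named, and other genes were drawn from the lists, up to 4 each way past 1.5-fold, taking those whose interval bound nearest 0 lay farthest from it; Tox, Gzmb and Eomes in NK cells were added after their values were seen. UMIs were summed per gate as CPM with exact Poisson intervals; log2 ratios had exact conditional binomial intervals and shares Clopper-Pearson intervals. Pairs of a member and a gate with under 20 UMIs were not compared between libraries. Ratio intervals were checked on simulated counts. Tools were Python 3.11.15, scanpy 1.11.5, scipy 1.17.1, and R 4.3.3 with edgeR 4.0.16 for TMM factors. Alternatives were other scalings, gate limits and cell filters. The row of Mir21a was not analysed here. A gene of the interferon gamma list is not reported here, and the list and the ranking were computed without it.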

Additional observations from a re-analysis of the deposited data

Results flagged for a closer look

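Ctla4 differed in opposite directions between gates: its log2 ratio (cko over wt) was 0.74 in CD8 T cells and 2.23 in NK cells, and -0.79 in Foxp3 T cells, each with an interval that excluded 0. Havcr2 had log2 ratios of 1.10 in CD8-negative T cells and -1.43 in NK cells. Split by Foxp3, neither part of the CD8-negative gate had a Havcr2 interval that excluded 0 (0.74 in Foxp3 T cells, 0.79 in the others). These differences between gates were not tested, since each genotype is 1 library, and the Havcr2 intervals (0.02 to 2.30 and -3.05 to -0.05) nearly reached 0. Among cells that met no gate, Ctla4 had 3 UMIs labelled wt and 22 labelled cko, a log2 ratio of 3.00, and 20 of the 22 UMIs were in 1 cell; without the top cells it was 1.12, with an interval from -3.14 to 7.01.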

How the results depend on the processing

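Of the 12 receptor pairs, 5 passed 1.5-fold, and the count ran from 4 to 7 under every alternative except a minimum of 50 UMIs, where it was 2. The 2 ligand pairs became 4 with TMM factors, 4 with median of ratios and 4 with a C1q limit of 0.1%. They became 5 with a lineage minimum of 3 UMIs and 8 without a minimum of UMIs, which admits pairs with under 20 UMIs. Both scalings added Pdcd1lg2 in mature dendritic cells (-0.58) and Cd86 in the gate on Cd209a and Flt3 (-0.56). These lay just inside 1.5-fold, and the scaling factors moved them past it (-0.68 and -0.63 with TMM factors). For the gate limits the cause was not tested. No pair past 1.5-fold reversed, and all 7 stayed past it where they met the minimum, which Havcr2 in NK cells missed without its top cell: Pdcd1 in NK cells ran from 2.65 to 4.42, Ctla4 in NK cells from 1.70 to 3.15, Cd274 in granulocytes from -2.02 to -1.27 and Pdcd1lg2 in transitional cells from -1.33 to -0.94 (log2). Leaving NK cells with a Cd3 or Cd8 UMI out was chosen after seeing the data, and kept the receptor count at 5. Of 72 shares of cells, 56 left the interval of the value at 3000 UMIs when thinned to 1000, and 51 without thinning. No paired analysis was possible because each genotype is 1 library. Without replicate libraries, the spread between mice is unknown, and gates of 10 to 30 cells rest on few UMIs.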

Other observations

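Cells that fell into more than 1 gate, 20 in each library, held 21 Lag3 UMIs labelled wt and 1 labelled cko. Cells that met no gate had Cd86 at 159 and 176 CPM and Cd274 at 50.2 and 52.5 CPM. B cells (15 and 13 cells) had Cd86 at 116 and 48.9 CPM.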
